A study of Mus musculus with 6 samples.

Results

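The genes described here were the 10 that encode the core ligands and receptors of vascular endothelial growth factor (VEGF) and angiopoietin signalling: the VEGF ligands Vegfa, Vegfb and Vegfc, their receptors Kdr (VEGFR2), Flt1 (VEGFR1) and Flt4 (VEGFR3), the angiopoietins Angpt1 and Angpt2, and the Tie receptors Tek (Tie2) and Tie1. They were taken by symbol from the 31053 genes of the count matrices, by a rule that uses no measured value, and all 10 had counts in both preparations. The data came from 6 single-cell RNA sequencing libraries, 4 of cortical surface-associated (CSA) cells and 2 of bone-associated (BA) cells. CSA cells were freed by enzymes from the outer surface of the dorsal cortex and carry the label Brain, and BA cells came from the connective tissue on the inside of the skull and carry the label Dura/Skull. All libraries were made from untreated adult C57BL6 mice of both sexes, with no difference in genotype or treatment between the preparations. Live nucleated cells were sorted, so the groups differed in tissue and in dissection. Each library pooled several mice, so the library is the replicate and the spread between mice was not seen. The mice were not perfused, and cells of the blood classes could have come from vessels or from tissue.

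Each mRNA molecule was counted as a unique molecular identifier (UMI). Of 17560 barcodes, 8680 cells were kept (5272 CSA and 3408 BA), with a median of 5453 to 9556 UMIs per cell in the 6 libraries. Cells were clustered for each preparation and clusters were named from marker genes, with the suffix "-like" because the names are rebuilt here, and none of the 10 genes took part in the clustering. Clusters that carried too few markers or those of another class stayed unnamed (1132 cells, 13%). CSA libraries 3 and 4 stood apart: 17.9% and 12.2% of the UMIs of their kept cells were those of hemoglobin, against 0.323% and 0.098% in CSA libraries 1 and 2, and they held 1 and 2 of the 281 CSA vascular smooth muscle cell (VSMC)-like cells. Only 11 kept barcodes were found in more than 1 library. A level is given as CPM, the UMIs of a gene per 1000000 UMIs of that class in that library, for libraries with at least 10 cells of the class. Differences were tested on UMIs summed per library and class with edgeR's quasi-likelihood test. The test covered every gene with a UMI in over 10% of the cells on either side, so a gene could enter through the side where it was higher alone. A gene passed at a Benjamini-Hochberg adjusted p under 0.05 over all genes tested. Log2 fold changes are given with their standard error (SE) or 95% interval, and intervals, floors and limits on counts cover counting error only.

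VEGF ligands are secreted proteins that bind receptor tyrosine kinases on endothelial cells. Vegfa signals mainly through Kdr and drives endothelial growth, migration and permeability, while Flt1 binds Vegfa and Vegfb tightly and can act as a decoy. Vegfc signals through Flt4, best known for its role in lymphatic vessels, and also through Kdr. Angpt1, made by the mural cells that wrap vessels, activates Tek and keeps the endothelium quiet, Angpt2 can oppose it, and Tie1 is a partner of Tek without a well defined ligand of its own. In the brain these pathways shape a capillary bed with a tight barrier, whereas vessels of the dura lack that barrier and lie beside dural lymphatic vessels.

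The genes lie apart in the mouse genome (GRCm38, mm10, GENCODE M21). Vegfa spans chr17:46016993-46032369, Vegfb chr19:6982473-6987651 and Vegfc chr8:54077606-54187096. Angpt1 spans chr15:42424723-42676977 and Angpt2 chr8:18690263-18741562. Among the receptors, Kdr (chr5:75932827-75978458) and Flt1 (chr5:147561604-147726011) share chromosome 5, Tek (chr4:94739289-94874976) and Tie1 (chr4:118471191-118490061) share chromosome 4, and Flt4 spans chr11:49609263-49652739. The receptors were found together in endothelial-like cells, so the sequence before their starts is shown for the 3 whose RefSeq window of 250 bases (GRCm38.p6) does not run into an annotated UTR by more than a few bases. Capitals mark matches to CAGGAA or CCGGAA, core letters of binding motifs of ETS factors, a family that includes regulators of endothelial genes, or to TATAAA, the TATA box letters, on either strand. The sequences read 5′ to 3′ on the strand of the gene: Kdr is chr5:75978456-75978705 (minus strand), Flt1 is chr5:147726012-147726261 (minus strand) and Tek is chr4:94739039-94739288 (plus strand).
Kdr: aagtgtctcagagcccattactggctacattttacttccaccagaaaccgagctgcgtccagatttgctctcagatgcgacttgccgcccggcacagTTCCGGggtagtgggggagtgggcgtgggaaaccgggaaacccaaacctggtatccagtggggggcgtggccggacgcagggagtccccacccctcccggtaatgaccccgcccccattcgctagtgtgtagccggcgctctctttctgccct
Flt1: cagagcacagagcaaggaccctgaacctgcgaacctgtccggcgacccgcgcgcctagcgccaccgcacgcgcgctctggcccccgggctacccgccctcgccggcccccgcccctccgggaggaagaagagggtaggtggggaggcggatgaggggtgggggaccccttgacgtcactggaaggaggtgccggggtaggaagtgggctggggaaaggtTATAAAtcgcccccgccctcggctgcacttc
Tek: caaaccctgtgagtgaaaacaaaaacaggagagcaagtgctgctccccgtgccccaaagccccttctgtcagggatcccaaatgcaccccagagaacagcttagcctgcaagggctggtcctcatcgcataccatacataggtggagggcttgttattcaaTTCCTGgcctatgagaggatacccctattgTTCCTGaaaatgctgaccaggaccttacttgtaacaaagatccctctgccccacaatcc

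The Kdr window held 1 match to CCGGAA, starting 153 bases before the gene's start, and the Tek window held 2 matches to CAGGAA, at 89 and 59 bases before it, all 3 on the opposite strand. The Flt1 window held neither of these 2 forms and 1 match to TATAAA, which began 31 bases before the start. The shorter letters GGAA, which both forms share, were not searched for and do occur in the printed Flt1 window. The Tie1 window, which overlaps an annotated UTR by 212 bases and is not printed, held 1 match to CAGGAA, and that of Flt4, which lies within one, held none of the 3 motifs. Such matches are common: of 32851 windows of the same length, 25.7% held CAGGAA, 12% CCGGAA, 35.1% at least 1 of these, and 12.4% TATAAA. A match describes letters and not a bound site.

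In both preparations the receptors were found almost wholly in endothelial-like cells, whereas the ligands came from several classes. Endothelial-like cells were 10.3% of CSA and 17.4% of BA cells, and held 93.5% (1943 of 2078) and 98.6% (4167 of 4225) of the Kdr UMIs of the preparation. Their share was 93.3% and 97.7% for Flt1, 98.9% and 98.0% for Flt4, 97.6% and 99.2% for Tek, and 97.2% and 98.5% for Tie1. The endothelial-like class carried its defining markers, with Cdh5 at a mean of 518 CPM in CSA and 806 CPM in BA libraries. Among ligands, Vegfc was also mostly endothelial (73.6% of 462 UMIs in CSA and 71.1% of 886 in BA). Of the Vegfa UMIs of CSA cells, 43.6% (276 of 633) came from mesenchymal-like cells, the fibroblast-like cells of the meninges, which were 5.46% of the cells. A further part came from an unnamed CSA cluster of 95 cells led by Gpc5, Cspg5 and Bcan, described in the last section. The 2629 Vegfa UMIs of BA cells were spread wider: 22.1% came from VSMC-like, 13.5% from monocyte-like, 12% from mesenchymal-like and 11.9% from dendritic-like cells. In CSA, Angpt1 and Angpt2 came mainly from mural-like cells. Pericyte-like cells held 55.5% of Angpt1 and 55.2% of Angpt2 UMIs, and VSMC-like cells 254 of 1102 and 212 of 1210 UMIs. In BA the sources were spread wider: VSMC-like cells held 30.6%, pericyte-like 18.8% and mesenchymal-like cells 16.1% of the Angpt1 UMIs, and of the 1531 Angpt2 UMIs these classes held 214, 229 and 413. Unnamed cells held 30.6% and 31.4% of the BA UMIs, nearly all in a single cluster of 42 cells.

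**Figure D1:**
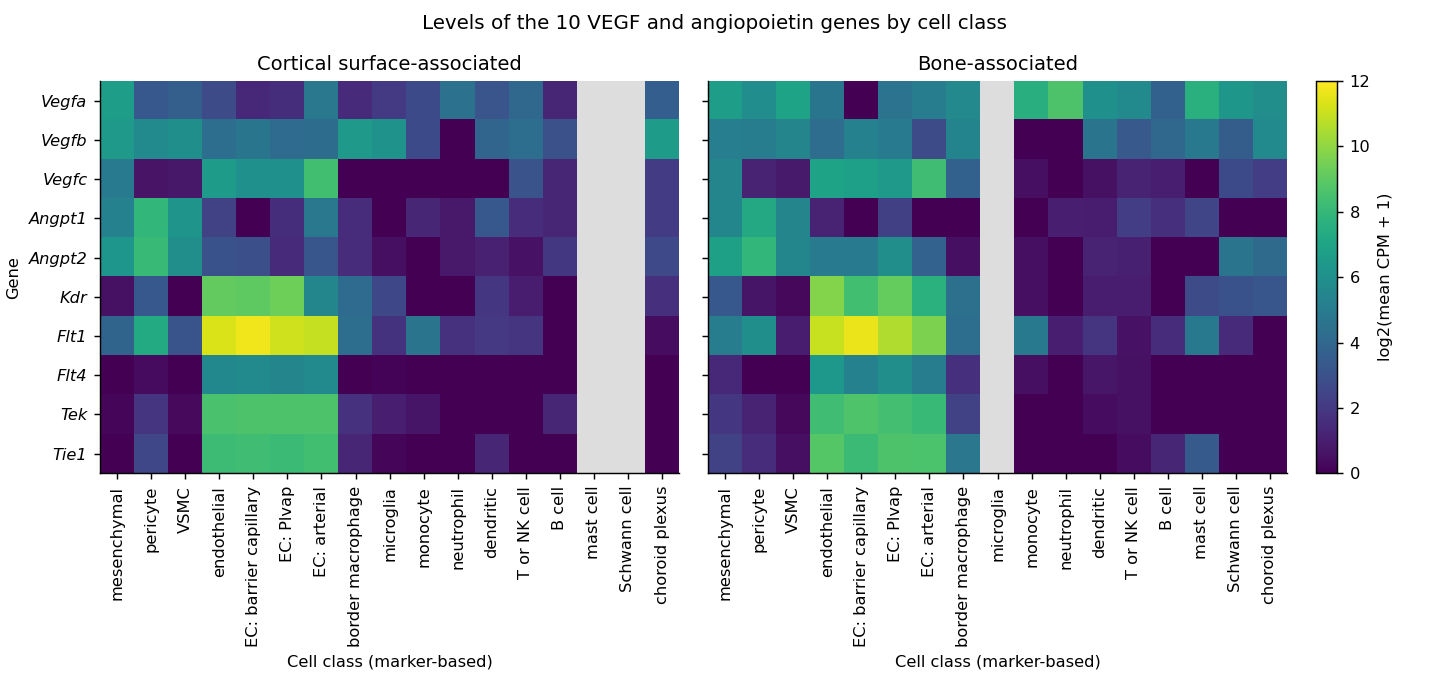
Level of each of the 10 genes (rows) in each cell class (columns) of the CSA libraries and of the BA libraries, as the log2 of mean CPM plus 1, with grey for a class that the preparation did not hold. The 5 receptors are brightest in the endothelial column of both panels, Flt1 also shows in pericyte-like and monocyte-like cells, and Vegfa and Vegfb show in many columns.

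Vegfa, the main VEGF ligand, had overlapping levels in mesenchymal-like cells of both preparations but was higher in the BA libraries in most other classes. Mesenchymal-like cells held 168, 86.9, 105 and 49.6 CPM in CSA libraries 1 to 4 and 138 and 62.2 CPM in BA libraries 1 and 2. The libraries of the preparations overlapped, and the fitted log2 fold change of CSA over BA was 0.25 ± 0.38 (SE; 95% interval -0.57 to 1.07; adjusted p = 0.777, edgeR). In VSMC-like cells, the contractile cells of larger vessels, Vegfa was at 12 and 11 CPM in CSA libraries 1 and 2, the only CSA libraries with enough of these cells, and at 142 and 103 CPM in the BA libraries. Here the groups did not overlap, and the level was lower in CSA by 3.48 on the log2 scale (log2 fold change -3.48 ± 0.29, adjusted p = 6.47e-07, edgeR). Of 4 of the 10 genes tested in VSMC-like cells Vegfa alone passed, where 8.97% of 8348 genes did. The BA VSMC-like cells were a cluster led by Cav3 and Plin4 and a smaller one led by Casq2 and Olfr558. Most CSA ones were in a cluster led by Cnn1 and Plin4, and few in one led by Olfr558 and Thsd4. A CSA cluster led by Agt and Casq2 stayed unnamed and was not in the class. The part of this makeup in the Vegfa difference was not tested. Pericyte-like cells carried markers of pericytes, the mural cells of capillaries, but held several unlike sub-clusters, described below. In this class Vegfa was at 9.1, 12.1, 4.1 and 9.9 CPM in the CSA libraries and at 70.3 and 46.8 CPM in the BA libraries. This was a log2 fold change of -2.61 ± 0.38 (adjusted p = 0.000217, edgeR), and of 5 members tested in pericyte-like cells Vegfa and Flt1 passed, against 8.53% of 7359 genes. Endothelial-like cells had little Vegfa, with 3.3 to 9.4 CPM in the CSA libraries and 29.0 and 19.5 CPM in the BA libraries, and the same direction (log2 fold change -1.86 ± 0.36, adjusted p = 0.00107, edgeR). These 3 differences passed in every alternative run for them. The endothelial subtypes, described below, were not alike: mean Vegfa was 26.6 CPM in CSA and 31.7 CPM in BA arterial-like cells, with overlap. In Plvap-like cells it was 1.9 and 22.6 CPM without overlap, as for 30.3% of genes tested there, and in barrier capillary-like cells 1.5 and 0 CPM. Vegfa was not among the members that passed in arterial-like or Plvap-like cells. The part of the subtype shares in the difference was not tested. CSA held only 25 Vegfa UMIs in 490 pericyte-like and 23 in 544 endothelial-like cells. In both of these classes the gene thus entered the test through the BA cells alone, which favours such a pass.

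In the BA preparation the highest Vegfa levels stood in myeloid classes. Neutrophil-like cells held 487 and 315 CPM in the BA libraries, and 25.5 and 16.7 CPM in CSA libraries 3 and 4, the only CSA libraries with at least 10 of them. Monocyte-like cells held 101 and 263 CPM in the BA libraries and 8.7 and 2.4 CPM in CSA libraries 3 and 4. Both classes were lower in CSA without overlap (log2 fold change -4.21 ± 0.52, adjusted p = 6.54e-06, and -5.60 ± 0.57, adjusted p = 3.4e-08, edgeR), where 6.69% of 4871 and 14.9% of 7838 genes passed. These comparisons of immune classes were added after the data were seen, and the one in neutrophil-like cells did not pass without BA library 1 (-3.88, adjusted p = 0.0706). Both passed with hemoglobin genes left out, an alternative added after the data were seen. The CSA cells of both classes came only from the libraries with much hemoglobin, and the part of these libraries in the difference was not tested. The CSA monocyte-like cluster was led by Pclaf, Ms4a8a and F10, with Pbk, Top2a and Kif11 further down. The BA one was led by Ms4a8a, Nrg1 and F10, and the part of this makeup was not tested. Mast cell-like cells, found only in BA, held 189 and 203 CPM. Border macrophage-like cells, the macrophages of the meninges and vessel sheaths, had 3.4, 3.7, 0 and 0 CPM in CSA libraries 1 to 4 and 52.9 and 44.1 CPM in the BA libraries (log2 fold change -4.23 ± 0.48, adjusted p = 0.000298, edgeR, with 10% of 7695 genes passing). This difference also passed with hemoglobin genes left out, and the part of other differences between the CSA libraries was not tested. CSA held only 17 Vegfa UMIs in 702 border macrophage-like and 7 in 98 monocyte-like cells. In both of these classes the gene thus entered the test through the BA cells alone, which favours such a pass.

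The number of cells with a Vegfa UMI showed the same order. Such a UMI was found in 68.4% of BA and 7.14% of CSA monocyte-like cells, and in 31.6% and 0% after each cell was thinned to 1500 UMIs. For VSMC-like cells the shares were 61.6% of BA and 12.8% of CSA cells, and 16.9% and 3.23% after thinning. As a rough measure of free RNA, B cell-like cells had a Vegfa UMI in 4.24% of BA cells and 0.680% of CSA cells, at medians of 4807 and 3937 UMIs per cell against 10952 and 12613 in VSMC-like and 13327.5 and 11915 in monocyte-like cells. Of the 147 CSA B cell-like cells, 48 and 87 came from libraries 3 and 4, whereas 112 and 166 of the 281 CSA VSMC-like cells came from libraries 1 and 2. The CSA share thus says little about free RNA around the VSMC-like cells. Whether B cells make Vegfa themselves was not tested. The share in CSA border macrophage-like cells, 2.14% (0.638% after thinning), was near that in CSA T or NK cell-like cells, 2.08% (0.347%), at medians of 8004 and 6163 UMIs per cell.

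Over the 10 classes with a mean of at least 10 CPM in either preparation, Vegfa was higher in BA without overlap between libraries in 8, and the libraries overlapped in 2, the mesenchymal-like and the T or NK cell-like cells. The 8 include B cell-like cells (14.6 and 10.1 CPM in BA, 0 and 2.9 CPM in CSA), used above as the measure of free RNA. Libraries that do not overlap were common among all genes tested: in either direction they made up 29.7% in endothelial-like, 32.6% in pericyte-like, 48% in VSMC-like, 39.7% in border macrophage-like, 27.2% in dendritic-like, 56.3% in monocyte-like, 49.1% in neutrophil-like and 57.5% in B cell-like cells, the 8 classes with Vegfa higher in BA, and 32.1% in mesenchymal-like and 33% in T or NK cell-like cells. T or NK cell-like and dendritic-like cells passed with Vegfa lower in CSA (log2 fold change -2.88 ± 0.73, adjusted p = 0.0204, with 18% of 5836 genes passing, and -3.66 ± 0.75, adjusted p = 0.0293, with 3.5% of 8197, edgeR), but neither held when single libraries were left out. For T or NK cell-like cells the adjusted p was 0.0568 without CSA library 3, 0.0929 without CSA library 4 and 0.149 without BA library 2. For dendritic-like cells it was 0.0539 without CSA library 1, 0.0805 without CSA library 3 and 0.112 without CSA library 4. CSA held only 23 Vegfa UMIs in 578 T or NK cell-like and 9 in 161 dendritic-like cells. There too the gene entered the test through the BA cells alone. The BA dendritic-like cells were a cluster of 120 led by Ube2c and Birc5 and one of 105 led by Ccl22 and Ccl17. The 161 CSA ones were a cluster led by Ccl17 and Flt3, and the part of this makeup was not tested. In order of mean level, neutrophil-like cells of BA stood first at 401 ± 121 CPM (SD, n = 2), above mast cell-like cells at 196 CPM without overlap. Below these, the libraries of monocyte-like BA (182 ± 115 CPM), VSMC-like BA (122 ± 27.3 CPM), mesenchymal-like CSA (102 ± 49.4 CPM, n = 4) and mesenchymal-like BA cells (62.2 and 138 CPM) overlapped from neighbour to neighbour.

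Genes induced by low oxygen and genes induced by dissociation were counted beside these values, from lists of 14 and 10 genes. Of the hypoxia response genes tested, none of 8 in pericyte-like cells passed in either direction, 3 of 10 passed with a higher level in BA in VSMC-like cells (Ankrd37, Hif1a and Vldlr), and 1 of 7 in monocyte-like and 1 of 6 in neutrophil-like cells did, in both cases Hif1a, a subunit of the hypoxia-inducible transcription factor. In T or NK cell-like cells 4 of 7 passed with a higher level in BA (Ldha, P4ha1, Hif1a and Epas1), in border macrophage-like cells 1 of 7 (Ldha) and in dendritic-like cells 0 of 8. In endothelial-like cells 1 of 9 passed, Ankrd37, which was higher in CSA. Of the dissociation stress genes, 4 of 10 passed with a higher level in BA in pericyte-like, endothelial-like and monocyte-like cells alike, and 3 of 8 did in neutrophil-like cells. In VSMC-like cells none of the 10 stress genes passed with a higher level in BA, and Dusp1 passed with a higher level in CSA. In mesenchymal-like cells 5 of 10 stress genes passed, all higher in BA. None of the 10 stress genes passed in dendritic-like, T or NK cell-like or border macrophage-like cells. In B cell-like cells 7 of 8 passed with a higher level in BA. Over all genes tested, in either direction, the share that passed was 8.53% in pericyte-like, 14% in endothelial-like, 8.97% in VSMC-like, 14.9% in monocyte-like, 6.69% in neutrophil-like, 15.9% in mesenchymal-like, 10% in border macrophage-like, 18% in T or NK cell-like, 3.5% in dendritic-like and 12.3% in B cell-like cells. The part of either list in the Vegfa levels was not tested.

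Vegfb, a ligand of Flt1 but not of Kdr, had another distribution. Between preparations it passed in mesenchymal-like and border macrophage-like cells, higher in CSA in both, and neither call held with every library left out in turn. Mesenchymal-like cells held 104, 92.5, 96.4 and 60.6 CPM in the CSA libraries and 24.6 and 42.9 CPM in the BA libraries. The groups did not overlap (log2 fold change 1.42 ± 0.32, 95% interval 0.74 to 2.11, adjusted p = 0.00593, edgeR). Vegfb was the only 1 of 5 members tested that passed in mesenchymal-like cells, where 15.9% of 9615 genes did. Without BA library 1 it did not pass (log2 fold change 1.12, adjusted p = 0.0641). Border macrophage-like cells held 93.5, 83.5, 73.0 and 93.3 CPM in the CSA libraries and 40.7 and 41.7 CPM in the BA libraries (log2 fold change 0.91 ± 0.23, adjusted p = 0.0288, edgeR). This call was lost when any 1 of CSA libraries 1, 2 or 4 or of the BA libraries was left out, with adjusted p of 0.0552, 0.0617, 0.0684, 0.103 and 0.134. The call was also lost with DESeq2 (adjusted p = 0.129) and in cells thinned to 1500 UMIs (adjusted p = 0.186, edgeR). Within the CSA libraries border macrophage-like cells exceeded microglia-like cells, the resident macrophages of brain tissue, in 4 of 4 libraries, with microglia-like cells at 90.1, 65.1, 57.5 and 58.1 CPM. That difference was small (log2 fold change 0.50 ± 0.14, adjusted p = 0.00655, edgeR) in a comparison where 49.2% of 7369 genes passed, and without CSA library 4 its adjusted p was 0.0703. Of 10 dissociation stress genes, 9 passed there with a higher level in border macrophage-like cells and 1 with a lower one, and their part was not tested. Pericyte-like cells held 47.3 to 54.7 CPM in the CSA libraries and 30.1 and 34.5 CPM in the BA libraries, and VSMC-like cells 58.7 and 63.9 against 48.9 and 38.0 CPM, and neither difference passed (adjusted p = 0.519 and 0.4, edgeR).

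Endothelial-like cells had little Vegfb, with 16.4 to 22.5 CPM in CSA and 17.1 and 19.5 CPM in BA libraries. No Vegfb UMI was found in neutrophil-like cells, which allows a share of up to 2.86% of the CSA and 3.53% of the BA cells with a UMI. Choroid plexus-like cells of CSA libraries 2, 3 and 4 held 40.9, 103 and 142 CPM. By mean level they stood first at 95 ± 50.7 CPM (SD, n = 3), followed by mesenchymal-like (88.3 ± 19.0 CPM, n = 4) and border macrophage-like cells (85.8 ± 9.8 CPM, n = 4) of CSA, and these neighbours overlapped. Over the 8 classes at 10 CPM or more, Vegfb was higher in CSA without overlap in 4, higher in BA without overlap in 1, and overlapping in 3. The 4 classes were mesenchymal-like, pericyte-like, VSMC-like and border macrophage-like cells, where 32.1%, 32.6%, 48% and 39.7% of all genes tested had no overlap in either direction, and the other was B cell-like cells, where 57.5% had none.

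**Figure D2:**
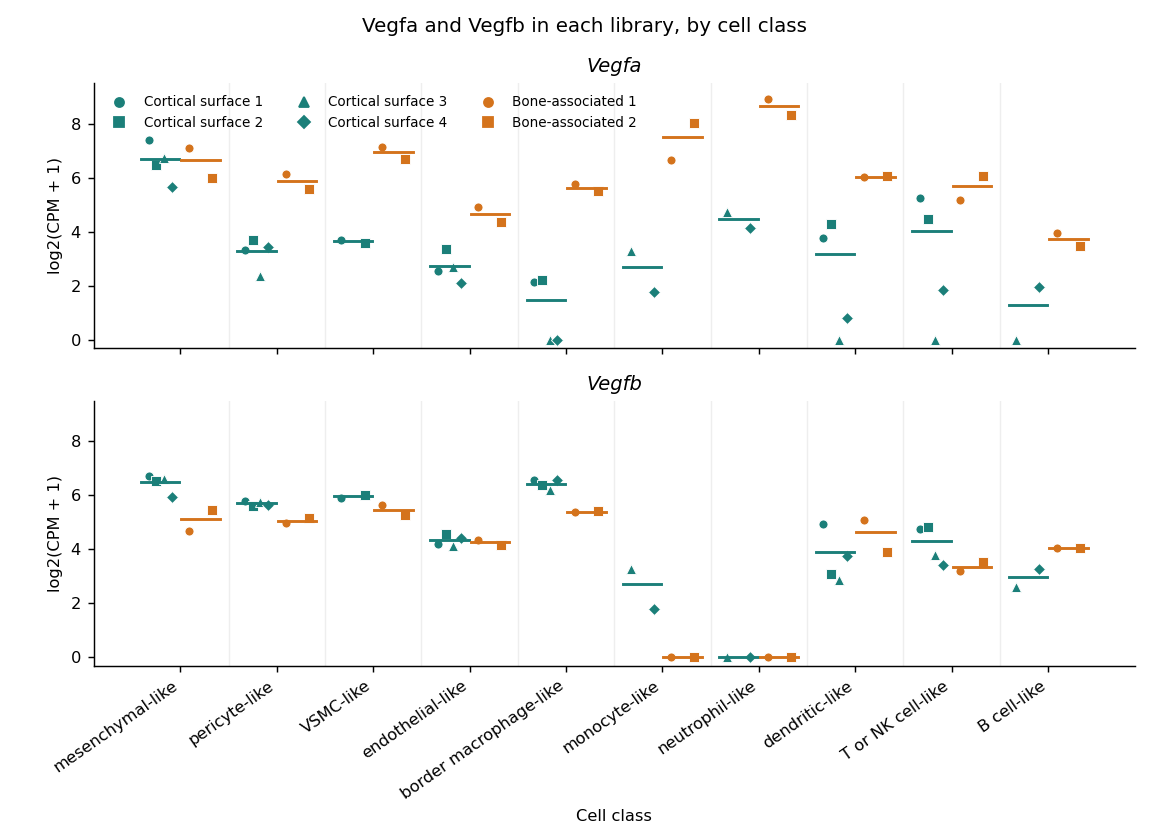
Level of Vegfa (top) and Vegfb (bottom) in 10 cell classes, as the log2 of CPM plus 1. Each point is a library (teal for CSA libraries 1 to 4, orange for BA libraries 1 and 2) and each line is the log2 of the mean CPM plus 1 of the group. Orange points lie above teal points for Vegfa in pericyte-like, VSMC-like, border macrophage-like, monocyte-like and neutrophil-like cells but not in mesenchymal-like cells, where teal points lie above orange points for Vegfb.

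Vegfc, the ligand of Flt4, was mostly an endothelial transcript here and was highest in arterial-like endothelial cells. Endothelial-like cells were divided into barrier capillary-like (219 CSA and 28 BA cells), arterial-like (74 and 142) and Plvap venous or fenestrated-like cells (204 and 155), the last named for Plvap, a protein of the diaphragms of leaky vessels. Arterial-like cells held 289, 368 and 336 CPM of Vegfc in CSA libraries 1, 2 and 4 and 341 and 297 CPM in the BA libraries, whereas barrier capillary-like cells held 43.1 to 99.0 CPM in the CSA libraries and 59.0 and 159 CPM in the BA libraries. Arterial-like cells were higher in 5 of 5 libraries (326 ± 32.8 against 86.2 ± 45.7 CPM), with a log2 fold change of 2.20 ± 0.27 (95% interval 1.64 to 2.76, adjusted p = 4.98e-06, edgeR, library as a block). Plvap-like cells, at 54.0 to 74.4 CPM in CSA and 91.3 and 88.7 CPM in BA libraries, did not pass against barrier capillary-like cells (log2 fold change 0.13). Between preparations Vegfc did not pass in arterial-like cells (log2 fold change 0.06, adjusted p = 0.953) nor in all endothelial-like cells (-0.35, adjusted p = 0.307, edgeR). Mesenchymal-like cells were the second source, with 21 to 38.6 CPM in CSA and 37.7 and 47.7 CPM in BA libraries (adjusted p = 0.327, edgeR). Vegfa, low in endothelial-like cells as a whole, was also on the arterial side: over the 5 libraries 46 UMIs fell in arterial-like and 2 in barrier capillary-like cells, a ratio of 21.2 per UMI of the class (95% counting interval 5.56 to 181, adjusted p = 0.000305, edgeR). Of 8 members tested between arterial-like and barrier capillary-like cells, Vegfc and Vegfa were higher and Kdr and Flt1 lower in arterial-like cells, where 14.6% of 7653 genes passed. Of the 10 dissociation stress genes, 8 also passed with a higher level in arterial-like cells, and their part in these differences was not tested.

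Among the receptors, Kdr and Flt1 passed tests between endothelial subtypes, and Tek, Tie1 and Flt4 did not. Kdr, the main signalling receptor for Vegfa, was found in 72.6% of CSA and 85.0% of BA endothelial-like cells, and in 0 of 147 CSA and 0 of 377 BA B cell-like cells, which allows up to 2.04% and 0.796% of them with a UMI. Its level in endothelial-like cells was 537, 611, 611 and 441 CPM in the CSA libraries and 993 and 747 CPM in the BA libraries. Of 8 members tested in all endothelial-like cells, Vegfa, Kdr and Flt4 passed, all 3 lower in CSA, where 14% of 7666 genes passed. The difference in Kdr (log2 fold change -0.63 ± 0.20, adjusted p = 0.0448, edgeR) did not hold when single libraries were left out. Its adjusted p was 0.113 without CSA library 1, 0.0708 without CSA library 2, 0.142 without CSA library 4, 0.327 without BA library 1 and 0.0703 without BA library 2. Flt4, the receptor of Vegfc, had 37.0 to 64.4 CPM in the CSA libraries and 72.8 and 94.0 CPM in the BA libraries (log2 fold change -0.75 ± 0.23, adjusted p = 0.0362, edgeR). It was lost as well, with an adjusted p of 0.0727, 0.0626 and 0.116 without CSA libraries 1, 3 and 4 and 0.37 without BA library 2. Because the subtypes take different shares of the 2 preparations, a difference in level cannot be told apart here from a difference in makeup. The part of either was not tested, and the subtypes are given next.

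Among the named subtypes, arterial-like cells had the lowest mean level of Kdr in each preparation. They held 24.8, 50.2 and 59.3 CPM in CSA libraries 1, 2 and 4 and 226 and 182 CPM in the BA libraries, without overlap, as was true of 29.6% of the genes tested there. The log2 fold change was -2.13 ± 0.36 (95% interval -2.87 to -1.39, adjusted p = 0.000335, edgeR), and of 9 members tested in arterial-like cells Kdr was lower and Flt1 and Angpt1 higher in CSA, where 4.97% of 7653 genes passed. In cells thinned to 1500 UMIs the difference in Kdr did not pass (-1.62, adjusted p = 0.0993). Flt1, which binds Vegfa and Vegfb, went the other way at 2131, 1499 and 2225 CPM in CSA against 830 and 734 CPM in BA (log2 fold change 1.31 ± 0.28, adjusted p = 0.00387, edgeR). Its adjusted p was 0.0602 without BA library 1 and 0.107 without BA library 2. Different clusters made up the arterial-like class: in CSA 73 of 74 cells belonged to a group led by Gkn3, Nos1 and Hey2, and in BA 77 cells to a group led by Serpinf1 and Gja5 and 60 to a group led by Slc22a4. The comparison therefore sets unlike arterial cells side by side.

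Barrier capillary-like cells, which were few in BA, held 422 to 569 CPM of Kdr in the CSA libraries and 454 and 202 CPM in the BA libraries. Over both preparations arterial-like cells were below them in Kdr (log2 fold change -1.87 ± 0.38, adjusted p = 0.00137) and in Flt1 (-1.18 ± 0.21, adjusted p = 0.000417, edgeR). The size of both differences depended on the preparation. For Kdr the log2 fold change was -3.30 within CSA and -0.58 within BA, a difference of -2.73 ± 0.41 (adjusted p = 1.50e-06, edgeR interaction). For Flt1 it was -0.68 within CSA and -1.94 within BA, a difference of 1.26 ± 0.25 (adjusted p = 0.000428), where 2.12% of 7653 genes passed this test. In counts, CSA arterial-like cells held 897 Flt1 and 24 Kdr UMIs, and BA arterial-like cells 881 and 226.

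Plvap-like cells held 547 to 723 CPM of Kdr in the CSA libraries and 683 and 451 CPM in the BA libraries, which overlapped. Within libraries their Kdr level was above that of barrier capillary-like cells in 6 of 6 libraries (log2 fold change 0.58 ± 0.17, adjusted p = 0.0397, edgeR, library as a block). It did not pass without CSA library 3 (0.0843), CSA library 4 (0.134), BA library 1 (0.0895) or BA library 2 (0.106). Flt1 was lower in Plvap-like cells in all 6 libraries (log2 fold change -0.67 ± 0.11, adjusted p = 0.000927, edgeR), and these were the 2 of 7 members tested that passed, against 8.53% of 7665 genes. For no member did the test of a dependence of these differences on the preparation pass (smallest adjusted p = 0.0788, for Tie1, where 5.83% of genes passed). The highest Kdr levels stood in a pair of unnamed BA endothelial groups, 1 led by Cd24a, Piezo2 and Cyp26b1 (142 BA cells) with 1705 and 1268 CPM and 1 led by Gpihbp1 and Aqp1 (123 BA cells) with 2209 and 1446 CPM. Flt4 was highest there too, at 127 and 103 CPM and at 174 and 166 CPM, against 16.1 to 82.3 CPM in the named subtypes of both preparations. CSA held only 8 and 3 cells of these groups, so no comparison between preparations could be made for them.

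The Tie receptors were found at similar ranges across the endothelial subtypes. Tek, the angiopoietin receptor, was at 364 to 450 CPM in barrier capillary-like, 382 to 426 CPM in Plvap-like and 346 to 481 CPM in arterial-like cells of the CSA libraries. In the BA libraries it was at 448 and 383, 407 and 275, and 320 and 236 CPM in the same order. No test between subtypes or preparations passed for Tek. Its log2 fold change over barrier capillary-like cells was -0.17 (95% interval -0.54 to 0.21) for arterial-like and -0.00034 (-0.29 to 0.29) for Plvap-like cells, and that of Tie1 was 0.25 (-0.14 to 0.64) and 0.17 (-0.18 to 0.52). In all endothelial-like cells Tie1 was at 397, 375, 213 and 200.1 CPM in the CSA libraries and 478 and 430.2 CPM in the BA libraries, so that the CSA libraries with much hemoglobin were the lowest. The fitted difference between preparations was -0.60 ± 0.22 (adjusted p = 0.0808, edgeR), and it passed when CSA library 1 (0.0424) or CSA library 2 (0.0415) was left out. All 5 receptors were seen together in 14.7% (80 of 544) of CSA and 27.5% (163 of 593) of BA endothelial-like cells. With each cell thinned to 1500 UMIs these shares were 0.581% (3 of 516) and 1.37% (8 of 584).

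**Figure D3:**
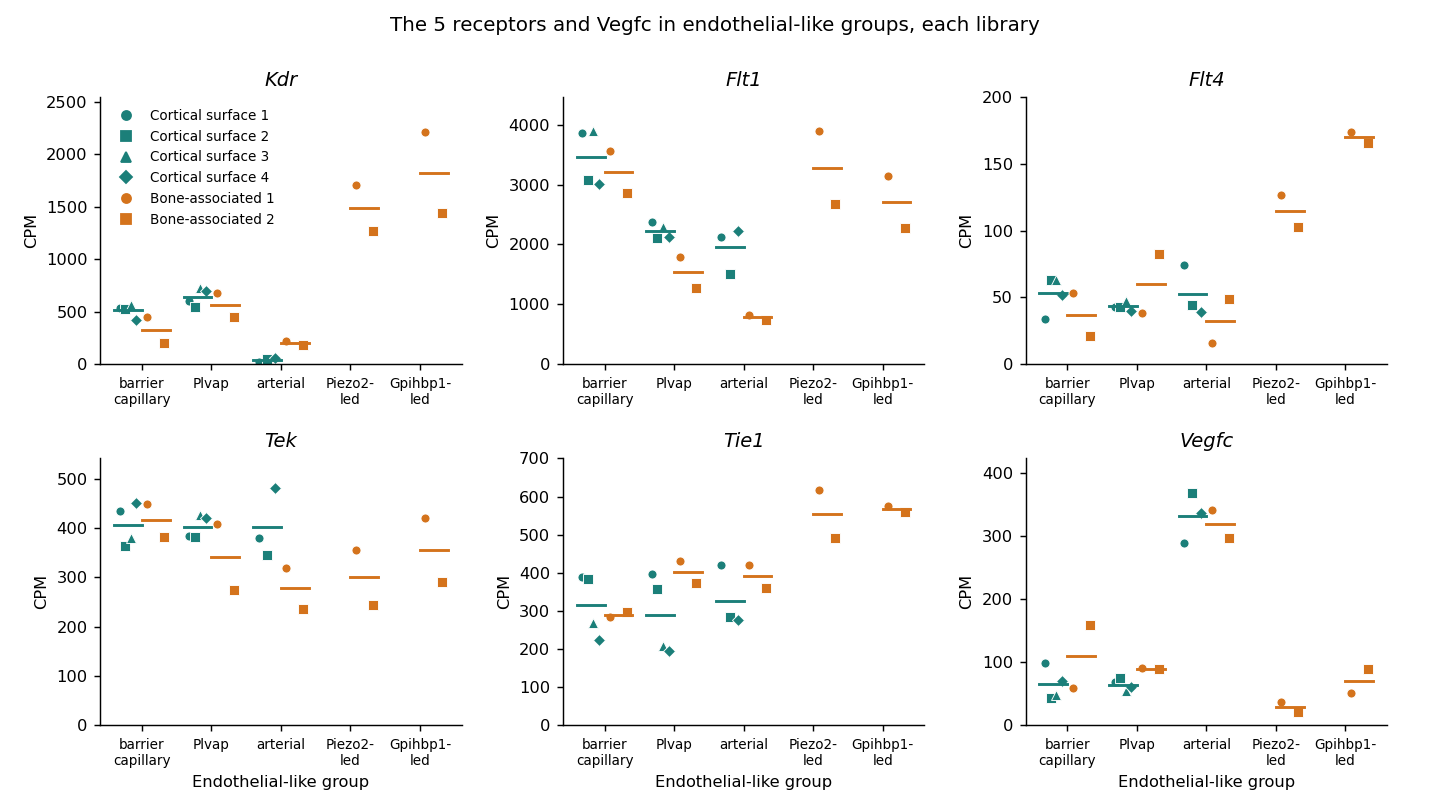
CPM of the 5 receptors and Vegfc in the 3 named endothelial subtypes and in the unnamed groups led by Piezo2 and by Gpihbp1. Each point is a library (teal CSA, orange BA) with at least 10 cells and each line is the mean of a preparation. Kdr is lowest in arterial-like cells, where the CSA libraries lie at 24.8 to 59.3 CPM, and Vegfc is highest there in both preparations, whereas Tek lies between 236 and 481 CPM in all of them.

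Outside the endothelium Flt1 was found in pericyte-like cells, and at a higher level in CSA. The level was 164, 145, 181 and 148 CPM in the CSA libraries and 85.4 and 39.4 CPM in the BA libraries. The groups did not overlap (160 ± 16.7 against 62.4 ± 32.5 CPM; log2 fold change 1.38 ± 0.29, 95% interval 0.76 to 2.00, adjusted p = 0.0054, edgeR), but without BA library 2 the difference did not pass (0.77, adjusted p = 0.275), nor in cells thinned to 1500 UMIs (0.85, adjusted p = 0.302) or without doublet removal (0.72, adjusted p = 0.0706). A Flt1 UMI was found in 41.2% of CSA and 21.6% of BA pericyte-like cells (16.6% and 8.70% after thinning), at medians of 4507 and 6758 UMIs per cell, and in none of the CSA and 0.796% of the BA B cell-like cells. Pericyte-like cells held 388 Flt1 and 24 Kdr UMIs in CSA and 49 and 1 in BA, against 8966 and 1943, and 9716 and 4167, in all endothelial-like cells, while the CSA arterial-like cells, at 897 and 24, had relatively less Kdr still. The endothelial markers Pecam1 and Cdh5 stood at means of 6.5 and 2.6 CPM in CSA pericyte-like cells and 1.8 and 0 CPM in BA ones, against 568 and 518, and 1027 and 806 CPM, in endothelial-like cells. Cldn5 was at 29.7 and 0 CPM. The whole endothelial marker list summed to a mean of 1180 CPM (range 1009 to 1536) in CSA and 1245 CPM (930 to 1560) in BA pericyte-like cells, with a UMI for 19 and 13 of its 24 genes.

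The level of Flt1 varied among the sub-clusters of pericyte-like cells, which the preparations held in different shares. It was at 99.0, 76.6, 166 and 95.5 CPM in the CSA cells of a sub-cluster led by Nrgn and Atp13a5 (257 CSA and 6 BA cells), and at 197, 125, 221 and 223 CPM in those of one led by Colec11 (208 CSA and 23 BA cells), where BA library 2 held 141 CPM. In a sub-cluster led by Emp1 and Fbn1, which held 110 of the 139 BA and 5 of the 490 CSA cells, it was at 26.7 and 19.5 CPM in the BA libraries. A sub-cluster of 20 CSA cells led by Dcdc2a stood apart, and its 11 cells in CSA library 2 held 38 Flt1 and 5 Kdr UMIs (575 and 79.9 CPM) together with 79.9 CPM of Tie1, so that receptors of the endothelium were joined there. The part of the sub-clusters in the difference between preparations was not tested.

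In pericyte-like cells Flt1 was above its level in VSMC-like cells, which held 10.0 and 5.2 CPM in CSA and 1.4 and 0.4 CPM in BA libraries. The log2 fold change of pericyte-like over VSMC-like cells was 4.50 ± 0.31 (adjusted p = 1.72e-06, edgeR, library as a block, over CSA libraries 1 and 2 and the BA libraries). Monocyte-like cells, blood cells known to carry VEGFR1, held Flt1 at 31.7 and 14.6 CPM in CSA libraries 3 and 4 and 24.3 and 32.2 CPM in the BA libraries. A UMI was present in 19.4% and 25.4% of them, with 23 Flt1 and 0 Kdr UMIs in CSA and 47 and 1 in BA. By mean level they stood beside other classes in which 1 library held most of the Flt1: BA mesenchymal-like cells at 62.3 and 0.80 CPM and BA mast cell-like cells at 56.6 and 0 CPM. The difference between preparations did not pass there (log2 fold change -0.70 ± 0.49, adjusted p = 0.393, edgeR).

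Angpt1 and Angpt2, the ligands of Tek, were both at their highest in pericyte-like cells among the named classes. Angpt1 was at 315, 147, 214 and 311 CPM in CSA and 196 and 108 CPM in BA pericyte-like cells, so that the preparations overlapped (log2 fold change 0.62 ± 0.32, adjusted p = 0.308, edgeR). Angpt2 was at 336, 243, 268 and 229 CPM in CSA and 266 and 217 CPM in BA pericyte-like cells, with almost no fitted difference (-0.0015 ± 0.22, 95% interval -0.48 to 0.47, adjusted p = 0.999, edgeR). VSMC-like cells held 95.4 and 51.1 CPM of Angpt1 and 63.4 and 55.8 CPM of Angpt2 in CSA, and 51.2 and 36.1 CPM, and 43.4 and 45.3 CPM, in BA. Pericyte-like cells were above VSMC-like cells for both (log2 fold change 1.41 ± 0.14, adjusted p = 2.4e-05, for Angpt1 and 2.07 ± 0.15, adjusted p = 2.09e-06, for Angpt2, edgeR). All 5 members tested in that comparison passed, where 34.3% of 8203 genes did. Flt1 and the angiopoietins were higher in pericyte-like cells, and Vegfa (log2 fold change -1.04 ± 0.22, adjusted p = 0.00368) and Vegfb (-0.57 ± 0.17, adjusted p = 0.0277, edgeR) higher in VSMC-like cells. Of 10 dissociation stress genes, 7 also passed with a higher level in VSMC-like cells and 2 with a lower one. Of 10 hypoxia response genes tested, 4 passed with a higher level there and 1 with a lower one. The part of either list was not tested. Vegfa was higher in VSMC-like cells in only 3 of 4 libraries and did not pass without BA library 2 (-0.81, adjusted p = 0.0593), with up to 20% mitochondrial UMIs (-0.21, adjusted p = 0.367), with at least 1000 genes per cell (-0.41, adjusted p = 0.0975) or without a pericyte-like sub-cluster led by Colec11 (-0.72, adjusted p = 0.124), and Vegfb did not pass without CSA library 1 (0.0565), CSA library 2 (0.174) or BA library 1 (0.0619). For no member did the test pass of whether the difference between pericyte-like and VSMC-like cells depended on the preparation (smallest adjusted p = 0.148, for Flt1, where 5.42% of genes passed).

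Among pericyte-like cells the angiopoietins were highest in the sub-cluster led by Colec11, whose other leading genes were Thsd7a, Fmod and Aldh1a1. Angpt2 was there at 477, 349, 461 and 426 CPM in the CSA libraries and 519.6 CPM in BA library 2, whereas in the Nrgn-led sub-cluster it was at 61.3, 108, 141 and 82.3 CPM in CSA. The libraries of these sub-clusters did not overlap. Angpt1 was at 389.6, 219, 259.5 and 413 CPM in the first and at 174, 59.2, 199.6 and 247 CPM in the second, so that Angpt1 was higher in each library while the ranges overlapped. The Emp1-led sub-cluster, mostly of BA cells, held 213 and 156 CPM of Angpt2 and 160.0 and 91.4 CPM of Angpt1 in the BA libraries. The comparison of pericyte-like cells between preparations thus sets mostly different sub-clusters side by side. Without the Colec11-led cells, an alternative added after the data were seen, Angpt2 passed with a lower level in CSA (log2 fold change -1.21, adjusted p = 0.0052, edgeR), and Angpt1 no longer passed between pericyte-like and VSMC-like cells (0.72, adjusted p = 0.0794). Angpt2 was also lower in CSA when cells were required to have 1000 genes (-1.06, adjusted p = 0.00902) or were kept up to 20% mitochondrial UMIs (-1.02, adjusted p = 0.0148).

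**Figure D4:**
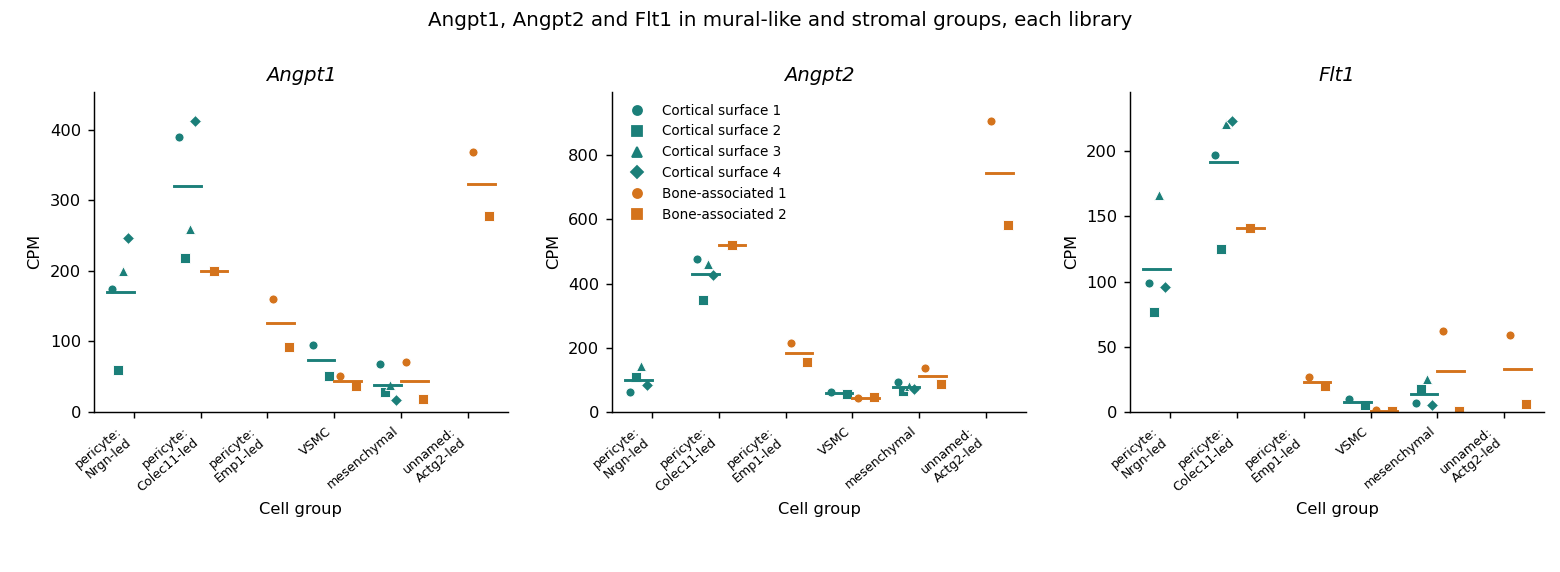
CPM of Angpt1, Angpt2 and Flt1 in the pericyte-like sub-clusters led by Nrgn, Colec11 and Emp1, in VSMC-like and mesenchymal-like cells, and in an unnamed BA cluster of 42 cells led by Actg2. Points are libraries (teal CSA, orange BA) with at least 10 cells and lines are means of a preparation. In the Colec11-led sub-cluster Angpt2 lies at 349 to 519.6 CPM, above the other named groups, and the unnamed cluster lies higher still at 908 and 583 CPM.

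Mesenchymal-like cells were the next source of Angpt2, with 65.8 to 92.2 CPM in CSA and 138 and 88.2 CPM in BA libraries (log2 fold change -0.41 ± 0.28, adjusted p = 0.419, edgeR). In endothelial-like cells, where Angpt2 is known to be stored and released on activation, it was at 0 to 20.6 CPM in CSA and 27.2 and 34.8 CPM in BA libraries. Most of it lay in Plvap-like cells of BA, at 40.0 and 79.6 CPM against 4.3, 0, 0 and 2.7 CPM in CSA, without overlap, as for 30.3% of the genes tested there. That was 109 against 2 UMIs, a ratio of 44.5 per UMI of the class (95% counting interval 12 to 372), and the only 1 of 8 members tested that passed in Plvap-like cells (adjusted p = 1.96e-07, edgeR, with 11.8% of 8048 genes passing). It passed in every alternative run. A UMI was present in 18.7% of BA and 0.980% of CSA Plvap-like cells, so the gene entered the test through the BA cells alone. Of the 109 BA UMIs, 108 were in a sub-cluster led by Selp and Sele (126 cells), whereas 202 of the 204 CSA Plvap-like cells were in another, led by Ackr1 and Col6a6. Markers of lymphatic endothelium summed to a mean of 346 CPM in BA Plvap-like cells (30.4 and 662 CPM) and 9.8 CPM in CSA ones, those of mesenchymal cells to 158 and 10.2 CPM and those of pericytes to 31 and 6.8 CPM, and 7 of 10 dissociation stress genes passed with a higher level in BA. The part of these in the Angpt2 difference was not tested.

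Angpt1 was found in arterial-like cells of CSA, at 33.0, 27.9 and 19.8 CPM in libraries 1, 2 and 4, and not in those of BA. This was 12 against 0 UMIs, at least 10.2-fold higher in CSA against a floor of 3 UMIs over the BA group (adjusted p = 0.00126, edgeR). With no UMI in BA, the gene entered the test through the CSA cells alone, which favours such a pass. Pericyte markers summed to a mean of 6.2 CPM in CSA and 34.3 CPM in BA arterial-like cells, VSMC markers to 96.1 and 753 CPM, and mesenchymal markers to 161 and 132 CPM. Their part in the Angpt1 difference was not tested.

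**Figure D5:**
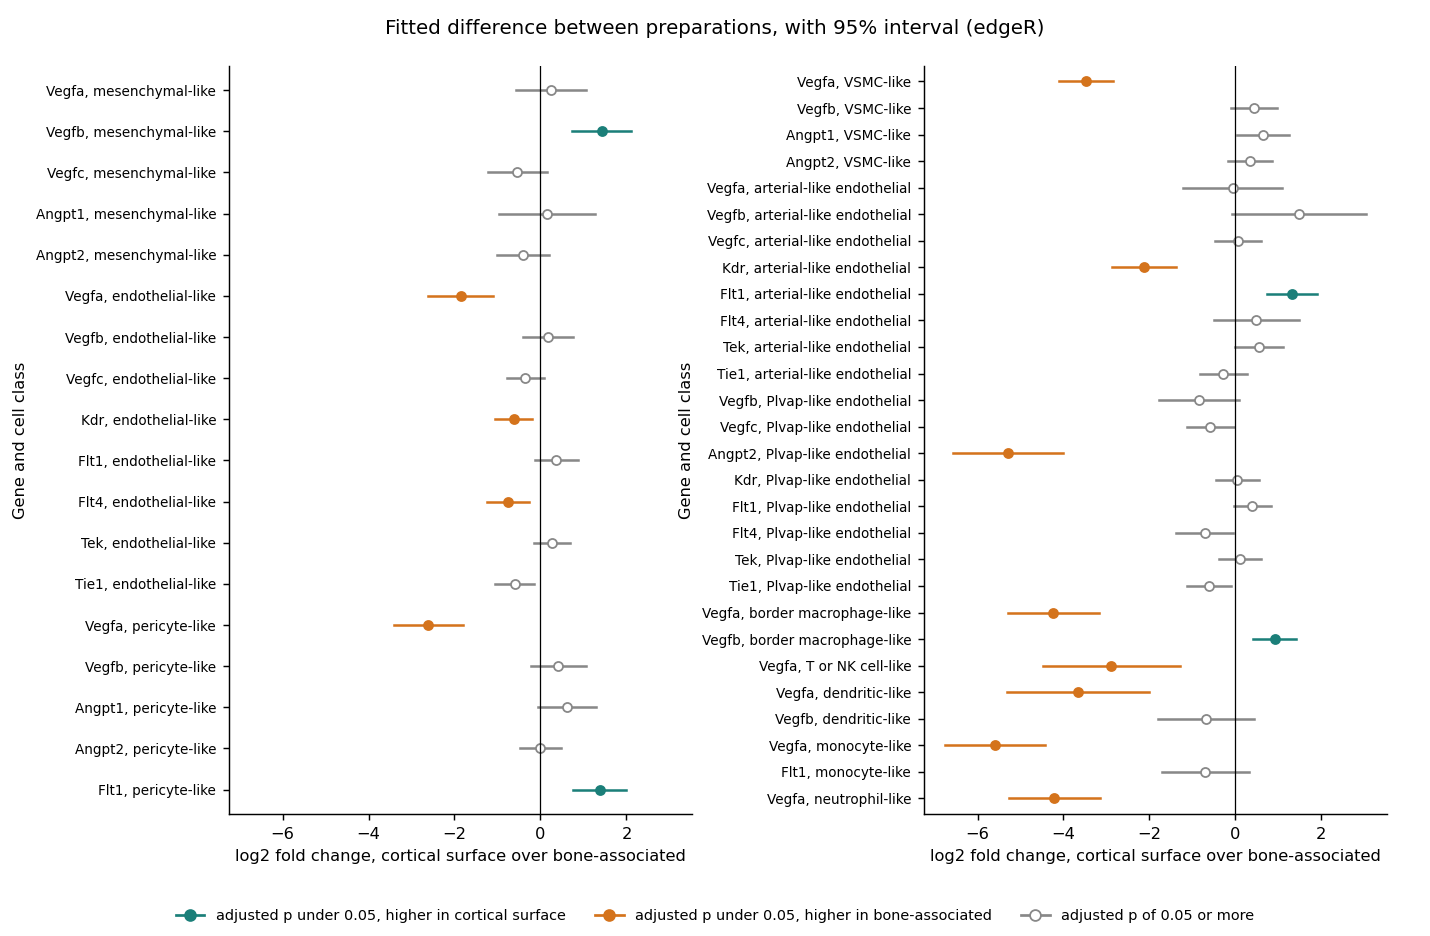
Fitted log2 fold change of CSA over BA for each member tested in each class, with its 95% interval. Filled teal points passed with a higher level in CSA, filled orange points passed with a higher level in BA, and open grey points had an adjusted p of at least 0.05. Vegfa lies to the BA side in VSMC-like (-3.48), pericyte-like (-2.61) and endothelial-like cells (-1.86), and Vegfb to the CSA side in mesenchymal-like cells (1.42), and Angpt1 in arterial-like cells, with no UMI in BA, is not drawn.

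Further genes of the pathway were counted from a list of 9 ligands, co-receptors and processing factors. Nrp1, a co-receptor that presents Vegfa to Kdr, was lower in CSA in mesenchymal-like (62.5 against 281 CPM, log2 fold change -1.98), endothelial-like (236 against 625 CPM, -1.39), pericyte-like (164 against 555 CPM, -1.96), VSMC-like (22.9 against 91.8 CPM, -2.13) and Plvap-like cells (107 against 224 CPM, -1.27), with adjusted p of 0.00673, 0.000103, 1.04e-05, 0.000165 and 0.000396 (edgeR). It was the only 1 of 3 list members tested in endothelial-like and of 4 in pericyte-like cells that passed, against 14% and 8.53% of all genes tested. In both of these classes the preparations held the sub-clusters in different shares, and the part of this makeup was not tested. In mesenchymal-like cells 4 of 6 passed, against 15.9% of all genes tested, all lower in CSA: Nrp1, Pgf, a Flt1 ligand (9.9 against 35.9 CPM), Angpt4, another Tek ligand (0.2 against 19.3 CPM), and Adamts3, which helps to process Vegfc (0.4 against 10.6 CPM). The median log2 fold change of the list there was -2.08, against 0.0036 over all genes tested. Angpt4 and Adamts3, at 0.2 and 0.4 CPM in CSA, entered the test through the BA cells alone. Such an entry favours a pass and pulls the count and the median towards BA, so neither describes the list as a whole. In VSMC-like cells 2 of 3 passed, against 8.97%, Nrp1 and Angpt4 (-1.31, adjusted p = 0.0286), both lower in CSA, and Pgf, at 120 and 125 CPM, did not. In arterial-like cells 0 of 3 passed, against 4.97% (edgeR). Nrp2, a co-receptor for Vegfc, was lower in CSA in Plvap-like cells (489 against 760 CPM, -0.79, adjusted p = 0.0183) and higher in Plvap-like than in barrier capillary-like cells (log2 fold change 1.54, edgeR), where 11.8% and 8.53% of all genes passed. Nrp2 also passed with a lower level in CSA in border macrophage-like and dendritic-like cells, against 10% and 3.5%. Between pericyte-like and VSMC-like cells all 4 list members tested passed, against 34.3%. Nrp1 and Nrp2 were higher in pericyte-like cells, and Angpt4 and Pgf in VSMC-like cells. Border macrophage-like cells exceeded microglia-like cells in Nrp1 (454 against 110 CPM, 2.17) and Nrp2 (0.82).

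Of 8 genes known to respond to VEGF in endothelial cells, 6 were tested in endothelial-like cells and 2 passed, both lower in CSA, where 14% of all genes tested passed. These were Dll4, a Notch ligand (42.2 against 90.3 CPM, log2 fold change -1.02, adjusted p = 0.00413), and Esm1, a tip cell gene (22.3 against 126 CPM, -2.11, adjusted p = 0.0129, edgeR). As for Kdr, the endothelial groups took different shares of the preparations. The unnamed Piezo2-led and Gpihbp1-led groups held 142 and 123 BA but 8 and 3 CSA cells. The part of this makeup was not tested. In Plvap-like cells 1 of 5 passed, against 11.8% of all genes, again Dll4 (-2.44, adjusted p = 0.00871). In arterial-like cells 0 of 4 passed, against 4.97%. Against barrier capillary-like cells, arterial-like cells were higher in Dll4 (1.47) and Sox17 (0.79) and lower in Aplnr, the apelin receptor (-5.84), 3 of 5 tested, where 14.6% of all genes passed. Plvap-like cells were higher than barrier capillary-like ones in Aplnr and lower in Sox17, Dll4 and Pdgfb, of 5 tested, where 8.53% of all genes passed.

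Genes whose levels over 26 groups, each a cell class in a preparation, were most like those of each member were ranked by Pearson's r of the mean log2 of CPM plus 1 among 12587 genes. This is a description without a test, since the groups share libraries and the receptors are near 0 in most of them. For Tek and Flt4 the nearest gene was Mall (r = 0.976 and 0.986), for Tie1 Cyyr1 (0.975), for Kdr Fgd5 (0.955) and for Flt1 Scarf1 (0.939). Angpt1 was nearest to Tbx15 (0.958) and Angpt2 to Kirrel (0.938). Vegfc was nearest to Hmcn1 (0.948). The nearest genes were less alike for Vegfa (Ptp4a1, 0.809) and Vegfb (Dnaja3, 0.914).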

How the data were processed

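Droplet libraries (10x Genomics Chromium) were made from 4 CSA and 2 BA preparations. The authors deposited raw UMI counts per gene and barcode, aligned to mm10 with Cell Ranger (version 3 in the submitters' processing notes, 6.1.2 in the matrix headers). The sample labels describe a papain dissociation of another brain region than the paper's methods do, and the libraries were grouped by their titles and tissues. Totals were 8408685, 16998497, 55385796 and 56169736 UMIs in CSA libraries 1 to 4 and 12041325 and 27511208 in BA libraries 1 and 2.

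Barcodes needed 500 genes or more and no more than 10% mitochondrial UMIs, and 124 likely doublets, scored against simulated ones, were removed at 0.8% per 1000 cells. Free RNA was not corrected. Each preparation was clustered (2000 variable genes, 30 principal components, 15 neighbours, Leiden resolution 1.5) without the members, the pathway, VEGF response and hypoxia lists, hemoglobin or mitochondrial genes. The dissociation stress genes were not left out and could take part in the clustering. A cluster was named when at least 3 markers of a class led it, and endothelial-like and pericyte-like cells were clustered again at resolutions 1 and 0.5. Sums of UMIs for each class with at least 10 cells in a library were fitted with edgeR (quasi-likelihood test, TMM normalization), with a block for the library in comparisons within libraries. Counts of changed genes in the closing section also require a log2 fold change of 1.3 or more in size. The fits were tested on simulated counts. Intervals of shares are exact binomial ones, and a count of 0 was given a floor of 3 UMIs. Genes named are the 10 members, those of the pathway lists that passed, and the genes nearest to each member. The members, lists and comparisons were chosen with earlier results of these data known.

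Alternatives were DESeq2, other normalizations, gene and cell filters, no doublet removal, another clustering resolution, thinning to 1500 UMIs, replicate or library blocks and each library left out. Those chosen after seeing the data were leaving out hemoglobin genes, the Colec11-led pericyte-like or the Alas2-led and Mrc1-led endothelial cells, the tests in immune classes and the interactions. The software was R 4.3.3 with limma 3.58.1, edgeR 4.0.16 and DESeq2 1.42.0, and Python 3.11.15 with leidenalg 0.10.2, igraph 0.11.9, pandas 2.3.3, numpy 2.4.6, scikit-learn 1.9.0 and scipy 1.17.1.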

Additional observations from a re-analysis of the deposited data

Results flagged for a closer look

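Levels of 38 groups of 4 or more libraries were searched for a library far from the others, where chance gives about 1 in 20. The search found 2 such values, which is near the chance rate, and both were in the same class and library. In border macrophage-like cells CSA library 3 held 62.8 CPM of Kdr and 73.0 CPM of Flt1. All 37 of its Kdr UMIs were in 1 cell and its 43 Flt1 UMIs in 2 cells, while its 4 Tek UMIs were in 1 cell and its 11 Pecam1 UMIs in 2 cells. These counts were made gene by gene, and whether the cells were the same was not tested. BA library 1 had a like pattern: of 17 border macrophage-like cells, 1 held all 10 Kdr UMIs and 1, not shown to be the same cell, held all 9 Flt1 UMIs.

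Differences between arterial-like and barrier capillary-like cells depended on the preparation for 2 members by a test of that dependence. For Kdr the CSA log2 fold change minus that of BA was -2.73, and for Flt1 it was 1.26. The arterial-like cells of each preparation belonged to different sub-clusters, and only 28 BA cells were barrier capillary-like. The part of either in the difference was not tested.

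An unnamed BA cluster of 42 cells (17 and 25 in libraries 1 and 2), which entered no comparison, held 323 CPM of Angpt1 and 745 CPM of Angpt2, against 126 and 227 CPM over all cells of the highest named BA class, the pericyte-like cells. These were 30.6% of the Angpt1 and 31.2% of the Angpt2 UMIs of the BA preparation in 1.2% of its cells, and 41 of the 42 cells had an Angpt2 UMI. The cluster was led by Actg2, Nts, Wisp2, Colec10 and Adamdec1 and carried markers of both VSMCs and mesenchymal cells, so it took no name. Per library it held 908 and 583 CPM of Angpt2 and 368 and 277 CPM of Angpt1.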

How the results depend on the processing

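Over the 10 comparisons of the design, the 60 results for members stayed on the same side of the threshold in 972 of 1028 alternatives, lost the pass in 47 and gained it in 9, and none that passed did so in the opposite direction. Values that did not pass could change sign, as Angpt1 in mesenchymal-like cells (0.16, from -0.69 to 1.18) and in pericyte-like cells (0.62, from -0.11), Vegfa in mesenchymal-like cells (0.25, from -0.23) and Angpt2 in VSMC-like cells (0.34, from -0.71). Between preparations in endothelial-like cells Kdr passed in 8 of 19 alternatives and Flt4 in 11 of 19. In the immune classes 110 of 127 were the same and 17 lost the pass, and of 715 recomputed levels 664 moved by less than the spread between libraries.

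Counts of genes called changed moved more. With cells thinned to 1500 UMIs, which leaves fewer counts, they fell from 1257 to 551 in mesenchymal-like, 507 to 242 in endothelial-like, 456 to 199 in pericyte-like, 482 to 159 in VSMC-like, 323 to 117 in arterial-like and 621 to 271 in Plvap-like cells, and from 1223 to 611 between border macrophage-like and microglia-like, 1192 to 570 between pericyte-like and VSMC-like, 735 to 316 between arterial-like and capillary-like and 288 to 116 between Plvap-like and capillary-like cells. Without a detection filter the counts were 902 (endothelial-like), 771 (VSMC-like), 2053 (border macrophage-like over microglia-like) and 1807 (pericyte-like over VSMC-like). With detection in over 20% of cells they were 325 (endothelial-like), 287 (pericyte-like) and 318 (VSMC-like). For pericyte-like cells they were 832 with at least 1000 genes and 825 with up to 20% mitochondrial UMIs, and 241 to 511 with a library left out, lowest without BA library 2. DESeq2 called 164 in arterial-like cells. The cause of these moves was not tested.

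Replicate numbers are shared by the preparations in the labels, and same-numbered libraries correlated at 0.0337 to 0.39 in their deviations. No correlation of differently numbered libraries stands beside these values, so they cannot decide whether the numbers are a pairing. The paper's methods state no pairing, and none was used in the main fits between preparations. With a replicate block, 1351 genes were called in mesenchymal-like, 468 in endothelial-like, 471 in pericyte-like, 511 in VSMC-like, 262 in arterial-like and 624 in Plvap-like cells. Angpt1 in VSMC-like cells then passed (log2 fold change 0.63, adjusted p = 0.00241 against 0.212, edgeR), and Vegfa in T or NK cell-like cells did not (-0.92, adjusted p = 0.21). Without the library block, Vegfa (adjusted p = 0.31) and Vegfb (0.0892) did not pass between pericyte-like and VSMC-like cells, nor Kdr (0.131) between Plvap-like and capillary-like cells.

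With 2 BA libraries, and 2 CSA libraries for VSMC-like, monocyte-like and neutrophil-like cells, tests rest on few samples. The BA barrier capillary-like class held 28 cells, so its Vegfa level of 0 lies under a floor of 11.4 CPM.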

Other observations

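Other unnamed clusters also held members. A CSA cluster of 95 cells led by Gpc5, Cspg5 and Bcan held 125 Vegfa UMIs, 19.7% of those of CSA, in 23 cells, and most were in CSA library 2 (231 CPM, against 22.9 and 7.0 CPM in libraries 3 and 4). A CSA cluster of 51 cells led by Agt held 47 Angpt1 UMIs (126 CPM). A BA cluster of 47 cells led by Cd300e and Treml4 held 21 Flt1 UMIs in 10 cells (59.0 CPM, 42.5 and 67.1 CPM per library).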
